A study of Saccharomyces cerevisiae with 6 samples.

Results

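The cytosolic large ribosomal subunit genes of budding yeast, Saccharomyces cerevisiae, were followed across 6 single-colour arrays. They were taken as every non-control probe set whose gene symbols all begin with RPL or RPP followed by a number and, for duplicated genes, the letter A or B. This gave 97 probe sets for 80 genes, out of 9275 non-control probe sets and 5923 named genes. The rule also took in RPP1, which encodes a subunit of the RNA-processing enzymes RNase P and RNase MRP and no ribosomal protein, so RPP1 was kept apart. The other 96 probe sets stand for 79 ribosomal protein genes, and 38 of the 96 are shared by the A and B copies of a gene.

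Of the 6 arrays, 3 held RNA of a wild-type strain and 3 RNA of a strain with a mutant histone H2B marked 3-32 in the labels, a notation that elsewhere stands for a deletion in the amino-terminal tail. All cells were in mid-log growth in YPD, a rich medium, and by its label wild-type array 3 also served as the wild type of further H2B mutants. Mating type, the other alleles of the strains, how the mutant H2B gene is carried, and whether the arrays stem from separate cultures are not stated in the labels. The p-values below therefore cover the spread among these arrays only, which could be technical. HTB1, an H2B gene, had signals of 1372, 1138 and 1191 on wild-type arrays 1, 2 and 3, and of 16.1, 19.4 and 15.2 on the mutant arrays. The comparison asks whether this change in H2B alters the mRNAs of large subunit proteins.

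The large subunit joins amino acids at its peptidyl transferase centre, passes the new chain out through an exit tunnel, and recruits translation factors through a stalk of acidic P proteins. Most yeast ribosomal protein genes exist as A and B copies that arose in a whole-genome duplication. Their transcription runs with growth rate, through Rap1, Fhl1, Ifh1 and Sfp1 under the control of the TOR pathway, and in rich medium their mRNAs are among the most abundant of the cell. Many A and B copies are so alike that a probe set can take signal from either. Of the 96 probe sets, 60 carry a suffix letter (a mark) that sets them apart from plain probe sets.

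Signals of the large subunit genes filled the bright end of every array. Between 83 and 85 of the 96 probe sets had a signal of at least 1000 on each array, and 29 to 34 lay above the array's 99th percentile. The median signal was 2612, 2841 and 1641 on wild-type arrays 1, 2 and 3, and 2742, 2521 and 1539 on mutant arrays 1, 2 and 3. Replicate 3 was the dimmest for these genes in both groups, and the mutant median was above the wild-type median in replicate 1 and below it in replicates 2 and 3.

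**Figure D1:**
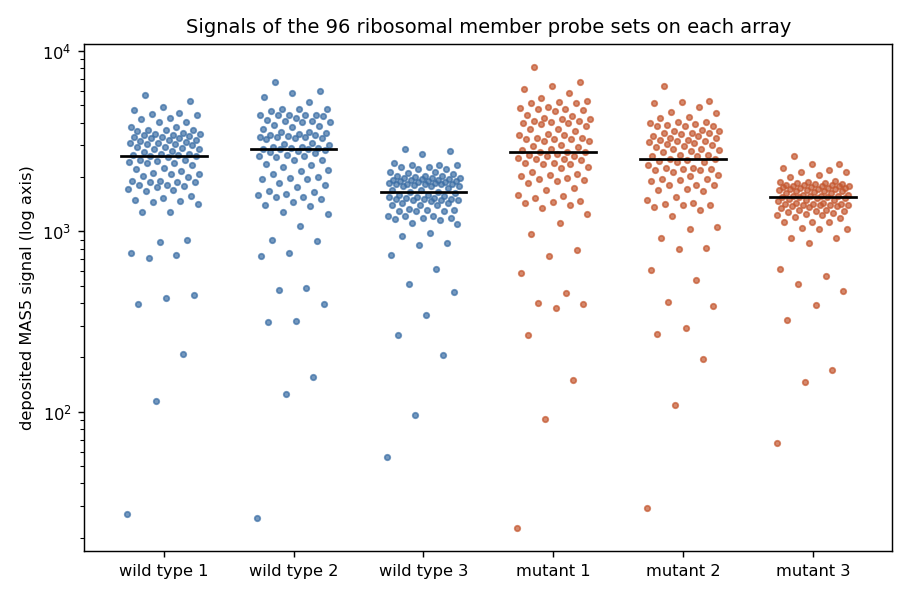
Deposited MAS5 signal (log axis) of each of the 96 ribosomal probe sets on the 6 arrays, with blue points for wild type, orange points for mutant and a black line at the median. Medians are 1641 and 1539 on the arrays of replicate 3 and 2521 to 2841 on the other 4 arrays, and the points of replicate 3 are squeezed together at the top.

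The drop on replicate 3 was seen in 84 of the 96 probe sets in wild type and 85 in the mutant, where array 3 lay below both other arrays of its group. Its median was -0.69 in wild type and -0.79 in the mutant on the log2 scale, array 3 less the mean of arrays 1 and 2. The 218 other probe sets with a mean signal of at least 1000, small subunit genes left out, had -0.52 and -0.59. Over all 5465 probe sets tested the same medians were 0.23 and 0.29. The top of the scale differed too, with a highest signal of 3178.5 and 2649 on the arrays of replicate 3 and of 6017.5 to 8357 on the others. The source of this gap was not tested.

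Averaged over the arrays, the log2 changes of the large subunit mRNAs centred near 0, which does not show that the levels were equal. The median log2 change over the 96 probe sets was -0.02, against -0.05 over all 5465 tested, where the change is the mean of mutant minus wild type on log2(signal + 2.7). Of the 96, 43 had a positive and 53 a negative change. The change lay within 0.1 of 0 for 63 probe sets and within 0.2 for 85, and only those of RPL9B and of RPL41A and RPL41B lay past 0.3.

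Limma with the group only called 0 of the 96 higher and 0 lower at an adjusted threshold of 0.05, where 0% of all probe sets were called higher and 0.0183% lower. The lowest adjusted p of a member in that fit was 0.9998, and 0 members had an unadjusted p under 0.05, against 2.42% of all probe sets. With the replicate number as a block, which removes what same-numbered arrays share, limma called 0 higher and 1 lower, RPL9B, against 0.677% and 0.622% of all probe sets. An unadjusted p under 0.05 was found for 6 of the 96 (6.25%) with the block, against 15.7% of all probe sets. These counts do not show that the levels were the same. With the block, the 95% interval of the change lay inside a 1.5-fold change either way for 93 of the 96 probe sets, and inside a 2-fold change for all 96. With the group only, whose spread includes the gap between replicate 3 and the others, this held for 13 and 64.

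The direction of the group depended on the pair of arrays. In pair 1, mutant array 1 less wild-type array 1, 66 of the 96 were higher and the median was 0.11. In pair 2 it was 22 higher with a median of -0.11, and in pair 3 25 higher with a median of -0.10. This was not particular to these genes. Of the 218 other bright probe sets, 158, 97 and 70 were higher in pairs 1, 2 and 3, with medians of 0.14, -0.04 and -0.08. Over all 5465 tested, 2269, 2162 and 2468 were higher. Only 4 of the 96 were higher in all 3 pairs (4.17%, against 12.6% of all tested) and 17 were lower in all 3 (17.7%, against 25.3%). The median of the 96 without pair 3 was 0.02. Leaving out single arrays moved the median between -0.26, without wild-type array 3, and 0.24, without mutant array 3. It was 0.07 without wild-type array 1, 0.11 without wild-type array 2, -0.20 without mutant array 1 and -0.12 without mutant array 2.

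**Figure D2:**
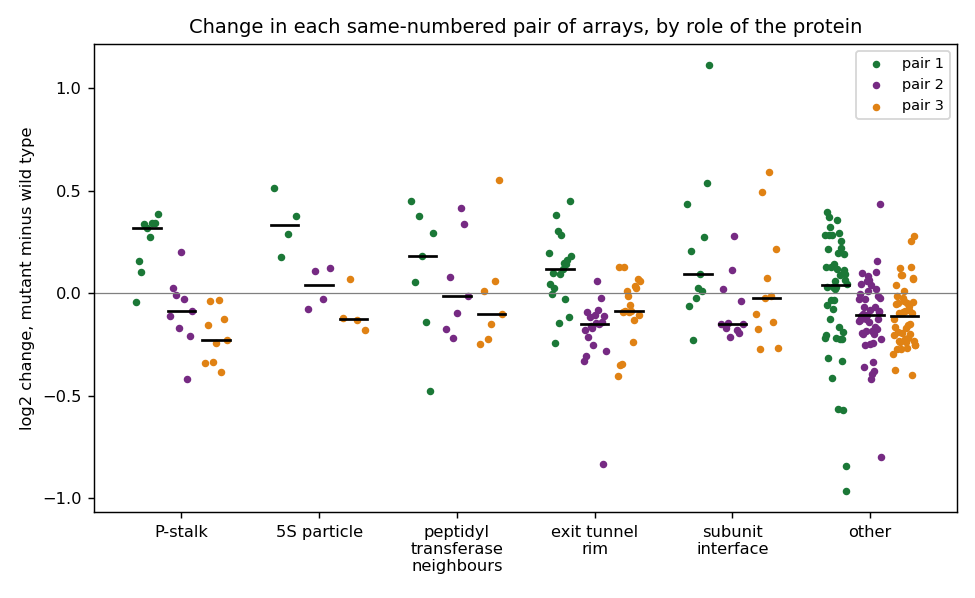
Log2 change, mutant minus wild type, of each ribosomal probe set in each same-numbered pair of arrays, grouped by the part of the subunit in which the protein sits, with black lines at the medians. For the P-stalk group the medians are 0.32, -0.08 and -0.23 in pairs 1, 2 and 3.

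Within pair 1 the change went with brightness, and in pairs 2 and 3 it went weakly the other way. In pair 1 the brightest large subunit probe sets had positive changes and the dimmer ones negative changes, and the Spearman correlation of the change with the mean log2 signal on the other 4 arrays was 0.80 over the 96 probe sets. It was -0.19 in pair 2 and -0.36 in pair 3. For the 68 small subunit probe sets the values were 0.66, -0.26 and -0.44, and over all tested probe sets 0.15, -0.01 and -0.08. For the 218 other bright probe sets they had the same signs, with 0.28, -0.15 and -0.26. These are descriptions across probe sets that share the same arrays. After quantile normalization, which gives all arrays 1 distribution, the medians of the 96 in pairs 1, 2 and 3 were -0.03, -0.05 and -0.005.

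**Figure D3:**
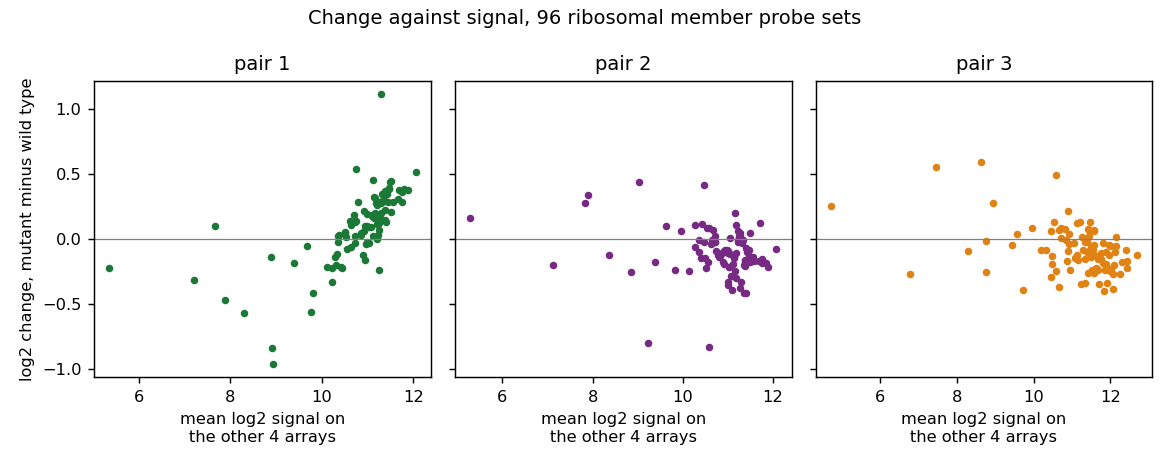
Log2 change in each same-numbered pair (vertical) against the mean log2 signal on the other 4 arrays (horizontal) for the 96 ribosomal probe sets. In pair 1 the points climb from left to right (Spearman 0.80), and in pairs 2 and 3 they tilt slightly down (-0.19 and -0.36).

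The P-stalk, which binds the elongation factors, was measured through RPP0, which anchors it, the P1 genes RPP1A and RPP1B, the P2 genes RPP2A and RPP2B, and RPL12A and RPL12B, whose product lies at its base. Of its 9 probe sets 0 rose, 0 fell and 9 did not pass, with a median log2 change of 0.01. RPP0 had signals of 3466, 4090 and 2067 in wild type and 4387, 3641 and 1636 in the mutant, arrays 1 to 3 in this and all later lists. RPP1A had 2606, 2753 and 1928 in wild type and 3247, 3160.3 and 1628 in the mutant. For both genes the groups overlapped, array 3 was the dimmest in each group, and the log2 changes were -0.06 and 0.09.

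RPP2A and RPP2B, which pair with the P1 proteins, moved little on average. RPP2A had 3453, 4406 and 1929 in wild type and 4377.5, 3817 and 1765 in the mutant, with a log2 change of 0.003. RPP2B had 3653, 4253.5 and 2092 in wild type and 4773, 4012 and 1783 in the mutant, with 0.02. In each the groups overlapped, the brightest array was wild-type array 2 for RPP2A and mutant array 1 for RPP2B, and array 3 was the dimmest of each group. The other P1 gene, RPP1B, has a pair of probe sets that differed in sign, with log2 changes of 0.07 and -0.15. The second of these changed by 0.34, -0.42 and -0.39 in pairs 1, 2 and 3 and did not pass with the block (limma adjusted p = 0.671). When pair 1, in which it rose, was left out of that fit, it fell by 0.40 (limma adjusted p = 0.0116). The share of all probe sets called without pair 1 is not given here. For RPL12A and RPL12B the 3 shared probe sets had changes of -0.16, 0.01 and 0.02.

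The 5S particle is built from the 5S ribosomal RNA and the products of RPL5, RPL11A and RPL11B before it joins the subunit. All 4 of its probe sets had positive log2 changes, from 0.04 to 0.12, but 0 passed. RPL5 had signals of 4521, 4775 and 2334 in wild type and 5869, 5205 and 2059 in the mutant, a log2 change of 0.11. The brightest probe set of RPL11A and RPL11B had 5686, 6725 and 2859.5 in wild type and 8132, 6371 and 2628 in the mutant, also a change of 0.11. In pair 3 both were lower in the mutant, and the groups overlapped.

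Proteins near the peptidyl transferase centre were represented by 7 probe sets, with a median of 0.05 and 0 that passed. RPL10, whose protein joins late and helps to complete the catalytic site, had signals of 3488, 4400 and 2227 in wild type and 4764, 3892 and 1875 in the mutant. RPL3, whose protein reaches towards that site, had 2088, 2198 and 1390 in wild type and 2367, 2054 and 1253 in the mutant. Their log2 changes were 0.01 and -0.02, and the groups overlapped in each. RPL28, known for mutations that make yeast resistant to cycloheximide, was higher in all 3 pairs by a small amount (log2 change 0.05, limma adjusted p = 0.857 with the block). The 3 shared probe sets of RPL4A and RPL4B, whose proteins line the tunnel, had changes of 0.06, 0.11 and 0.14.

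Around the exit tunnel, 0 of 19 probe sets rose, 0 fell and 19 did not pass, with a median of -0.03. The lowest change was that of the shared probe set of RPL35A and RPL35B, which had signals of 2008.5, 1845.5 and 1173 in wild type and 1855, 1034.5 and 1232 in the mutant. The mutant was clearly dimmer on array 2 only, and the log2 change of -0.29 did not pass (limma adjusted p = 0.382 with the block). RPL25, whose protein binds the signal recognition particle at the tunnel's end, had a change of -0.03, and RPL39, whose small protein lies in the tunnel wall, one of -0.01. RPL22A and RPL22B differ in that the Rpl22 protein is known to hold back splicing of RPL22B. RPL22A had a change of 0.05 and RPL22B of -0.14, with signals of 441, 486 and 513 in wild type and 399, 407 and 508.5 in the mutant for RPL22B, whose groups overlapped.

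Proteins that face the small subunit were represented by 11 probe sets, with a median of 0.04 and 0 that passed, and held the 3 single probe sets with the highest changes. RPL41A and RPL41B, which encode the smallest ribosomal protein and share a probe set, had signals of 426, 318 and 95.7 in wild type and 455, 387 and 146 in the mutant. The mutant was brighter in all 3 pairs, array 3 was far dimmer in both groups, and the groups overlapped with and without it. The log2 change of 0.32 did not pass (limma adjusted p = 0.189 with the block). RPL43A and RPL43B, another bridge protein, had changes of 0.24 and 0.23 on a pair of shared probe sets and of -0.02 on the third. On the probe set with 0.23 the signals were 1886, 3543 and 2035 in wild type and 4081.5, 3191 and 1691 in the mutant, so that wild-type array 1 was low and only pair 1 was higher in the mutant. RPL40A and RPL40B, made as fusions with ubiquitin, had changes of -0.09, 0.04 and 0.07 on 3 shared probe sets.

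RPL9B was the only large subunit gene called. Its protein lies at the base of the region where elongation factors bind. Its own probe set had signals of 739.6, 471 and 742 in wild type and 378, 269 and 621 in the mutant. It was lower in the mutant in all 3 pairs, by 0.96, 0.80 and 0.25 on the log2 scale, but mutant array 3 lay above wild-type array 2, so the groups overlapped. The mean log2 change was -0.67 (95% interval -0.96 to -0.39 with the block), and the mean signal went from 651 ± 156 (SD, n = 3) in wild type to 423 ± 180.3 (n = 3). Limma's adjusted p was 0.034 with the block and 0.9998 with the group only.

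The copy RPL9A did not show the same pattern. Its own probe set had signals of 708, 395 and 463 in wild type and 394, 535 and 562 in the mutant, down in pair 1 and up in pairs 2 and 3. A probe set shared by both copies had 1533, 1654 and 1505 in wild type and 1582, 1418 and 1264 in the mutant, a log2 change of -0.14 (limma adjusted p = 0.559 with the block). All 3 of these probe sets carry a suffix letter, i for each copy's own and s for the shared one, and what belongs to which copy is uncertain.

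The call on RPL9B depended on the fit. It was kept in 7 of 10 alternatives within the block and lost with no filter on dim probe sets (adjusted p = 0.0605), without a trend in the variance (0.0986) and with all non-control probe sets (0.0745). It was also lost without pair 2 (log2 change -0.61, adjusted p = 0.252) and with replicate 3 as a batch in place of the block (adjusted p = 0.102). Without pair 3 the change was -0.88 and without pair 1 -0.53, both called. Leaving out single arrays from the group-only fit moved the change between -0.39, without mutant array 2, and -0.99, without mutant array 3. RPL9B was not called in any of these 6 fits, but with all arrays the group-only fit called only 0.0183% of probe sets lower. Leaving out pair 1 called 5 further probe sets lower: those of RPP1B, RPL17A, RPL36A, RPL17A with RPL17B, and RPL34A with RPL34B, with changes of -0.40, -0.37, -0.33, -0.33 and -0.33. In pair 1 these 5 had changes of 0.34, 0.20, 0.20, -0.002 and 0.12. The share of all tested probe sets called without pair 1 is not given here, so whether this count is unusual cannot be told.

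**Figure D4:**
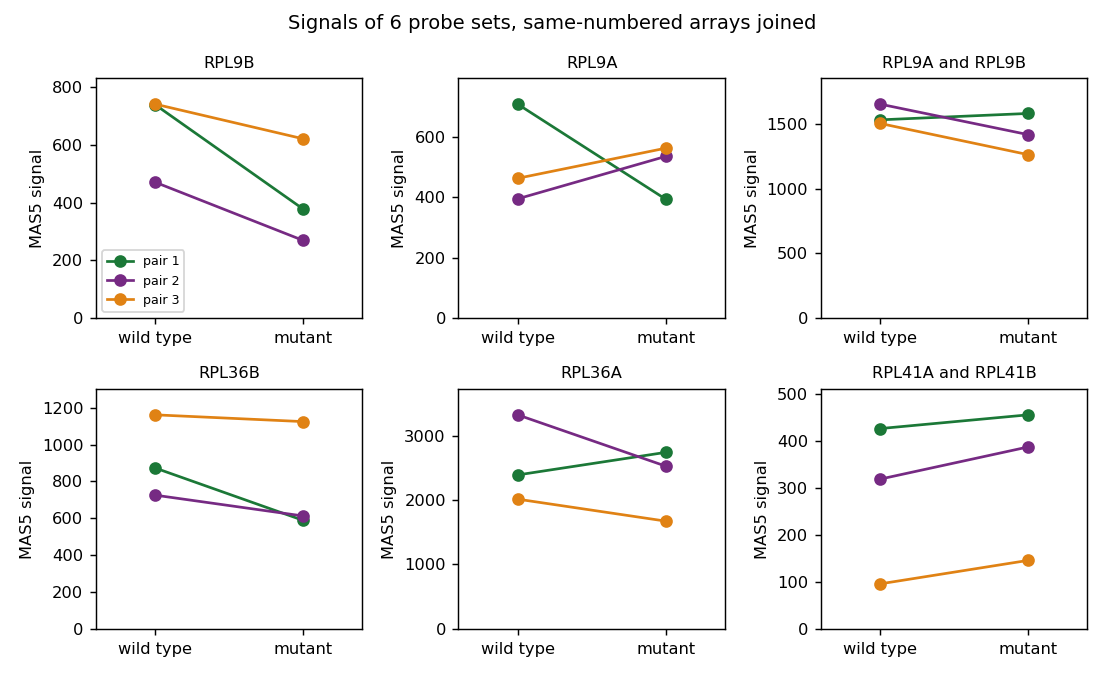
MAS5 signal (axis from 0) of 6 probe sets in wild type and mutant, with a line joining the same-numbered arrays. RPL9B falls along all 3 lines, RPL9A along pair 1 only, and RPL41A and RPL41B climb along all 3 while pair 3 lies far below the others.

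Other proteins of the subunit's surface and body made up 46 probe sets, with a median of -0.05, of which RPL9B alone passed. After RPL9B the lowest changes were those of RPL36B and RPL7B. RPL36B had signals of 873, 725.5 and 1161 in wild type and 588.5, 612.5 and 1124 in the mutant, a log2 change of -0.29 (limma adjusted p = 0.26 with the block). Its groups overlapped, and array 3 was the brightest of each group. RPL7B had changes of -0.25 and -0.26 on a pair of probe sets, the brighter with 897, 898 and 617 in wild type and 788, 794 and 468 in the mutant. RPL15B had 114, 125.5 and 207 in wild type and 91.2, 109 and 171 in the mutant, a change of -0.26. Each of these 3 genes was lower in all 3 pairs and did not pass. Of all tested probe sets, called or not, 25.3% were lower in all 3 pairs. RPL36B, RPL7B and RPL15B are each the B copy of a pair. Their own probe sets gave lower signals than the brightest one named for the A copy alone. Signals of different probe sets do not show which copy has more mRNA. Mean wild-type signals of B and A were 920 and 2575 for RPL36, 804 and 2807 for RPL7, and 149 and 2251 for RPL15.

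RPL13A was the 1 probe set of the 96 whose groups did not overlap, with 1568, 1392 and 1519 in wild type and 1348, 1366.5 and 1235 in the mutant. All 3 mutant arrays lay below the lowest wild-type array, and the log2 change of -0.18 did not pass (limma adjusted p = 0.418 with the block). Among all tested probe sets 4.65% had groups that did not overlap with the mutant lower and 2.6% with the mutant higher. RPL13A lies next to RPP1A on its chromosome, and RPL24A next to RPL30, which encodes a protein that regulates splicing of its own transcript. The neighbours had log2 changes of -0.18 and 0.09, and of -0.07 and 0.04.

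Of the duplicated genes, 18 had a probe set named for A alone and another for B alone. For RPL7, RPL9, RPL14, RPL17, RPL27, RPL31, RPL33 and RPL36 at least 1 of those compared carries a suffix letter. How far these hold to 1 copy is uncertain. The 24 probe sets of B copies had a median log2 change of -0.11 and the 23 of A copies one of -0.04, while the 38 shared ones had 0.02 and the 11 of single-copy genes -0.01. Lower in all 3 pairs of arrays were 10 of the 24 B probe sets and 3 of the 23 A probe sets. Over all tested probe sets this held for 25.3%. The 3 A probe sets, of RPL6A, RPL13A and RPL21A, were dimmer in wild type than those of the B copies. Their mean wild-type signals for A and B were 1305 and 3194, 1493 and 1966, and 1910 and 4124. The 10 B probe sets, save that of RPL9B, were dimmer than the brightest probe set of the A copy. Whether these counts go with the copy or with brightness was not tested. Since levels of different probe sets cannot be set against each other, the A signal was divided by the B signal within each array and this ratio compared between groups on the log2 scale. The A minus B change was above 0 in 11 of 18 gene pairs and below 0 in 7, and within 0.1 of 0 in 6.

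In 0 of the 18 gene pairs did the groups separate. Exact two-sided permutation tests over the 6 arrays cannot give a p under 0.1, and the lowest adjusted p over the 18 was 0.953. RPL9 had the largest A minus B change, 0.63 ± 0.56 (SD, n = 3 pairs of arrays), with 0.12, 1.24 and 0.53 in pairs 1, 2 and 3 (exact permutation p = 0.2). RPL7 followed with 0.29 ± 0.13 (n = 3) and RPL15 with 0.27 ± 0.26 (n = 3), and both were above 0 in all 3 pairs of arrays. RPL22 (0.45, 0.09 and 0.03) and RPL33 (0.28, 0.16 and 0.10) were above 0 in all 3 as well, which makes 5 of the 18. The permutation test does not use the pairing, and an exact test of sign flips over 3 pairs could not give a p under 0.25. The lowest was RPL13 with -0.19 ± 0.31 (n = 3). For gene pairs with a bright and a dim probe set this ratio also moved between replicates: the log2 ratio of RPL15A to RPL15B was 4.40, 4.49 and 2.74 in wild type and 4.94, 4.50 and 3.00 in the mutant. With quantile normalization the groups separated in 2 gene pairs, RPL14 (0.16) and RPL33 (0.20), each with an exact permutation p of 0.1 and an adjusted p of 0.72.

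**Figure D5:**
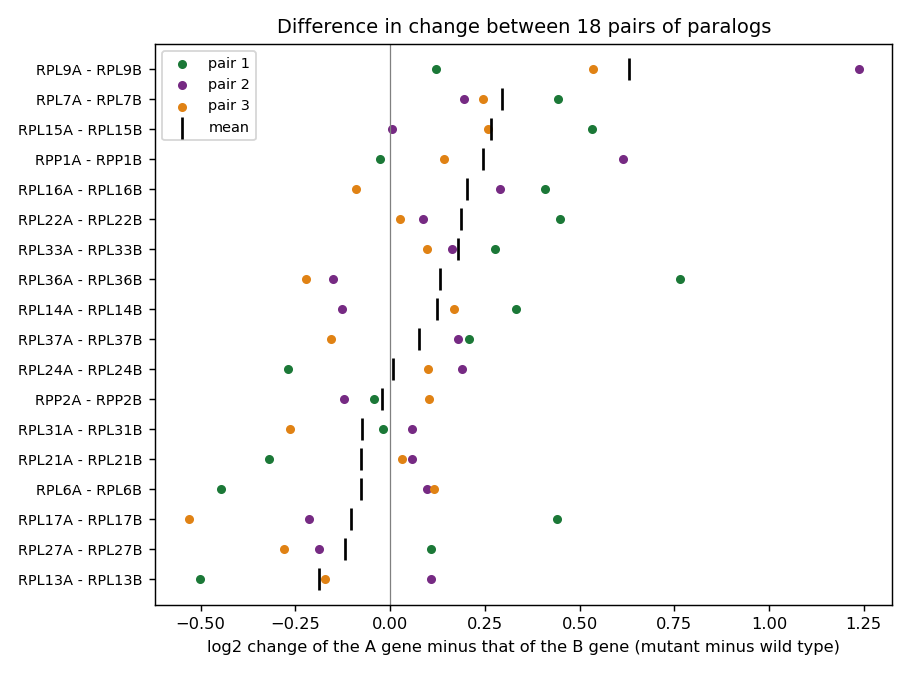
Log2 change of the A copy minus that of the B copy (mutant minus wild type) for the 18 gene pairs with a probe set named for each copy. Coloured points are the 3 same-numbered pairs of arrays and the black bar is their mean, which runs from -0.19 for RPL13 to 0.63 for RPL9.

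Probe sets of the same gene or gene pair differed in their changes. Such gaps can hold measurement error and, for shared probe sets, differences between the copies, which were not told apart. In 16 genes or gene pairs with several probe sets, the log2 changes of these differed by a median of 0.14 and by up to 0.26, for RPL43A and RPL43B. These spans are another measure than the distance of a change from 0, which was within 0.1 for 63 of the 96. For RPL7A, 1 probe set had signals of only 27 and 25.9 on wild-type arrays 1 and 2 where another had 3325 and 3325, and RPL4A and RPL4B likewise had a dim shared probe set, with 208 and 155 on those arrays. The position of these probe sets in the genes is not stated in the labels.

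Genes that act with the large subunit had 0 calls with the block, where 0.677% of all probe sets were called higher and 0.622% lower. With shares this low, 0 calls in lists of this size do not set them apart from all probe sets. Of 25 tested probe sets for regulators of ribosomal protein genes, 0 rose and 0 fell with the block, and the median log2 change was 0.003. The smallest p were those of DOT6 (log2 change 0.21), a repressor of ribosome synthesis genes, and ABF1 (-0.24), a general promoter-binding factor, with limma adjusted p of 0.34 and 0.376. Of 55 probe sets for proteins that escort, mature or export the large subunit, 0 rose, 0 fell and the median was -0.04. SPB4, a helicase of large subunit assembly, had a change of -0.32 (limma adjusted p = 0.154) and MEX67, an export receptor, of 0.32 (0.196).

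Small subunit protein genes, with 67 tested probe sets, had a median of -0.04 and 0 calls in either direction. With the block, 0.677% of all probe sets were called higher and 0.622% lower, so this count does not set them apart. Their medians in pairs 1, 2 and 3 were 0.05, -0.09 and -0.12, beside 0.11, -0.11 and -0.10 for the large subunit. A probe set for 25S ribosomal RNA, the RNA core of the large subunit, was higher in the mutant, with 386, 425 and 232 in wild type and 1154, 785 and 867 in the mutant. This RDN25-1 probe set had a log2 change of 1.45 and a limma adjusted p of 0.0023 with the block and 0.643 with the group only. A second RDN25-1 probe set had 28.9, 32.7 and 27.4 in wild type and 263, 69.2 and 14.3 in the mutant, higher in pairs 1 and 2 and lower in pair 3, and did not pass (limma adjusted p = 0.323 with the block). Its part in the signals of the protein genes was not tested. RPP1, the RNase P gene that the rule took in, had signals of 187, 182 and 128 in wild type and 170.3, 184 and 120.2 in the mutant, a change of -0.07.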

How the data were processed

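The authors deposited 1 linear intensity for each probe set, and the submitters' processing notes name MAS5, whose version, settings and detection calls are not stated there. The 2% trimmed means of the columns were 125.1 to 125.2, so values were used as deposited. Probe sets were named from the platform's table, with symbols updated through gene identifiers. Before log2, 2.7 was added to each value (the 10th percentile over non-control probe sets), which understates changes of dim probe sets. Of 6832 probe sets with a gene, 1367 below the 20th percentile of mean log2 value were left out and 5465 tested, all 96 ribosomal members among them.

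The test was limma 3.58.1 in R 4.3.3 (eBayes with trend), two-sided, and p-values were adjusted by Benjamini-Hochberg over the 5465, at a threshold of 0.05. The group-only fit was the main one. For the replicate block, same-numbered arrays of the groups were used as pairs, and their deviations correlated at 0.55, 0.65 and 0.89. Wild-type array 1 and mutant array 2 correlated at 0.60, and wild-type array 2 and mutant array 1 at 0.67. The pairing of replicates 1 and 2 therefore rests on the labels only. The block leaves 2 residual degrees of freedom against 8.69 for the variance prior, on which its calls lean. The number of arrays limits the precision.

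Members, lists and tests were chosen with earlier results of these data known. Named by rule were members called in either fit, the 5 largest rises and falls, the stalk and 5S genes, the lowest p of each role and the 6 gene pairs most unlike in A minus B. Other members named were chosen after their values were seen. Steps were tested on simulated data. Alternatives were other normalizations, offsets, filters, variance priors and probe set choices, and left-out arrays.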

Additional observations from a re-analysis of the deposited data

How the results depend on the processing

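Under every alternative without the replicate block, 0 members were called higher and 0 lower. These alternatives included replicate 3 as a batch term, and probe set choices that left 47 or 36 members in place of 96. The main group-only fit called only 1 of all 5465 probe sets, so these counts of 0 say little about the members. Members called lower were 1 with the replicate block, and between 0 and 6 with the replicate block without single replicates (6 without replicate 1, 0 without replicate 2, 1 without replicate 3). For fits without a replicate, the share over all tested probe sets is not given here. Within the block, 1 became 0 with no filter, without a trend, with all non-control probe sets and with probe sets without a mark, which leave RPL9B out. With all other alternatives within the block it was 1. The median change of the members was -0.01 with quantile normalization and 0.02 with scaling to a common median, and ran from -0.26 to 0.24 when single arrays were left out. Gene pairs whose groups did not overlap in A minus B were 0, 2 with quantile normalization, and 0 to 5 without single arrays. The 5 arose without mutant array 3: RPL22, RPL15, RPL7, RPL9 and RPL33. Groups with fewer arrays separate more easily when nothing differs, and no share expected from that is given. This count is therefore not evidence of a difference. Of 32 named members, 16 had the other sign without wild-type array 3, 17 without mutant array 1 and 14 without mutant array 2, all uncalled. The number of arrays and the narrow range of bright signals on replicate 3 limit these values, and the cause of these shifts was not tested.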
